A study of Mus musculus with 8 samples.

Results

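The cadherin and protocadherin superfamily was taken as every gene symbol in the count table for a numbered cadherin (Cdh), a protocadherin (Pcdh), Celsr1 to Celsr3, Fat1 to Fat4, Dchs1 or Dchs2, with 1 row kept per symbol. The rule found 101 of the 22869 symbols in the table. They were 5 type I classical cadherins, 13 type II classical cadherins, 5 other cadherins, 12 non-clustered protocadherins, 5 Fat and Dachsous genes, 3 Celsr genes and 58 clustered protocadherins (14 alpha, 22 beta and 22 gamma). Dchs2 was not analysed here. The 58 clustered genes are described apart from the other 43, because the alpha and gamma rows share exons.

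The study measured total RNA by sequencing in hearts of C57BL/6 mouse embryos at E12.5, a stage counted in days after mating, in the atrioventricular (AV) cushions, the swellings from which the valves form, and in the ventricles. There were 8 libraries in 4 groups of 2: cushion and ventricle of wild type embryos, and both tissues of mutants. The mutant genotype is written NfatC1+/-; KLF2fl/fl in the labels, that is, a heterozygous change at Nfatc1, a gene active in the endocardium, together with loxP-flanked alleles of Klf2, which encodes a flow-responsive transcription factor. The sources used here do not say whether the Nfatc1 allele carries a Cre recombinase. The control libraries are labelled wild type, whereas the series text names KLF2 fl/fl mice, so that whether the controls also carry loxP-flanked Klf2 was not settled here. Neither the number of embryos behind a library nor any pooling is given, so that the p-values here reflect the spread among libraries, which may in part be technical. Whole cushions and ventricles were taken, so fewer cells of a type and less RNA per cell cannot be told apart in any value below.

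Levels are given in CPM, the reads of a gene after division by the scaled library total, and 1 CPM stands for at least 18.7 reads, since library totals lay between 18955733 and 26579215 counts. Klf2 itself was at 17.3 and 12.9 CPM in wild type cushion and 1.96 and 0.651 CPM in mutant cushion, and at 11.7 and 9.19 CPM in wild type against 0.736 and 0.625 CPM in mutant ventricle. All 4 mutant libraries were thus below all 4 wild type libraries. One library, mutant cushion replicate 2, lay between the tissues on the main axis of a principal component analysis (-22.8, against -54.9 to -46.3 for the rest of the cushions and 35 to 50.3 for the ventricles). The summed level of 8 cushion mesenchyme markers was 7571 to 16080 CPM in cushions and 1482 to 4434 CPM in ventricles. That of 10 cardiomyocyte markers was 27100 to 44860 CPM in cushions and 37310 to 98190 CPM in ventricles, so the cushion samples held muscle RNA and the ranges overlapped. Within each replicate number the ventricles were higher. For replicate 1 the sums were 44860 and 32550 CPM in cushions and 98190 and 88370 CPM in ventricles. For replicate 2 they were 27100 and 28770 CPM against 37310 and 37890 CPM. The sum of 10 endothelial markers was 1084 to 1274 CPM in cushions and 1204 to 1517 CPM in ventricles.

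Classical cadherins are single-pass membrane proteins that bind the same cadherin on a neighbouring cell through calcium-dependent extracellular repeats and hold the actin cytoskeleton through catenins. Protocadherins, which have more extracellular repeats and no catenin-binding tail, act in recognition and sorting of cells, and Fat, Dachsous and Celsr proteins are giant relatives that set the polarity of cells within a tissue. In the heart, N-cadherin joins cardiomyocytes, VE-cadherin joins endothelial cells, and a switch of cadherins accompanies the change of endocardial cells into the migrating mesenchyme of the cushion.

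Of the 43 members outside the clusters, 31 passed the filter on low counts. The 12 that did not were Cdh1, Cdh7, Cdh9, Cdh12, Cdh15, Cdh17, Cdh22, Cdh23, Cdh26, Celsr3, Fat2 and Pcdh8, none of which was above 0.613 CPM in any library (Cdh7, mutant ventricle replicate 1). Cdh22 had 0 counts in all 8 libraries. Cdh1, the E-cadherin of epithelia, was at 0.435 CPM or less, and 5 of 8 epithelial markers (Epcam, Cldn3, Cldn4, Cldn6 and Esrp1) were below 1 CPM in all libraries. The other 3, the keratins Krt8, Krt18 and Krt19, were at 3.30 to 7.40, 14.98 to 29.65 and 17.23 to 55.05 CPM.

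**Figure D1:**
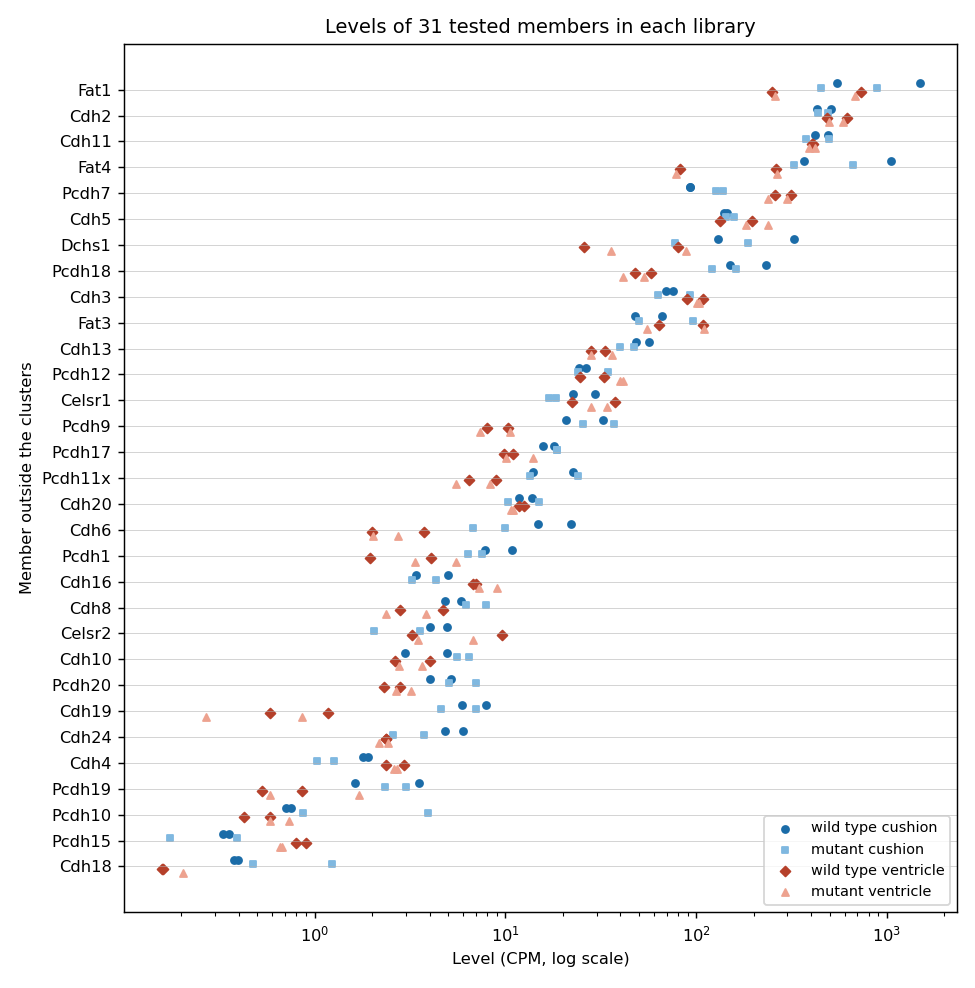
Level of each of the 31 tested members outside the clusters in every library, in CPM on a log scale, 1 point per library and 2 libraries per group (dark circles, wild type cushion, light squares, mutant cushion, dark diamonds, wild type ventricle, light triangles, mutant ventricle). A library at 0 is not drawn, as for Cdh18 in mutant ventricle replicate 2. Fat1, Cdh2, Cdh11 and Fat4 reach the highest levels, the cushion points of Cdh6, Cdh19 and Pcdh18 lie to the right of the ventricle points, and those of Pcdh7 lie to the left.

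Compared per length, as the mean CPM per kb of the longest annotated transcript over the 8 libraries, Cdh2 was highest at 104.5 CPM per kb. It was followed by Cdh11 at 75.6, Fat1 at 44.5, Cdh5 at 41.9, Fat4 at 23.96, Pcdh7 at 22.2, Pcdh18 at 20.9 and Cdh3 at 20.03 CPM per kb. The next in order were Dchs1 at 11.03, Cdh13 at 8.69 and Pcdh12 at 5.59 CPM per kb, and the other 20 tested members lay below 4 CPM per kb. The order differed by tissue. In wild type cushion, Pcdh18 at 37.0 CPM per kb stood beside Cdh5 at 35.7, and Pcdh7 was at 10.6. In wild type ventricle, Pcdh7 at 32.7 CPM per kb stood beside Fat1 at 33.1, and Pcdh18 was at 10.2.

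Upstream sequence is shown for the 4 genes on which the results below turn: Cdh6 and Pcdh18, the classical cadherin and the protocadherin called higher in cushion in both genotypes with the smallest p in wild type; Fat4, the Dachsous partner whose cushion and ventricle libraries did not overlap; and Pcdh7, called lower in cushion in both genotypes. Each is the 250 bases before the RefSeq gene start in the mouse build GRCm38.p6, written 5′ to 3′ on the strand of the gene, and differs in build from the counts, which rest on mm9. The RefSeq promoter table used here held 28 of the 43 members outside the clusters. Capitals mark CACCC or its complement GGGTG, the element that Krüppel-like factors are known to bind.

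Cdh6, chr15:13173676-13173925, minus strand: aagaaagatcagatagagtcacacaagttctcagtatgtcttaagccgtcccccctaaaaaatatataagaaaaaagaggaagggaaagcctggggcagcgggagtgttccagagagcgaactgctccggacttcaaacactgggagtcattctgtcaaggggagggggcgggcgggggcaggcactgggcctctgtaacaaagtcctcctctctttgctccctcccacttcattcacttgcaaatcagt
Pcdh18, chr3:49757317-49757566, minus strand: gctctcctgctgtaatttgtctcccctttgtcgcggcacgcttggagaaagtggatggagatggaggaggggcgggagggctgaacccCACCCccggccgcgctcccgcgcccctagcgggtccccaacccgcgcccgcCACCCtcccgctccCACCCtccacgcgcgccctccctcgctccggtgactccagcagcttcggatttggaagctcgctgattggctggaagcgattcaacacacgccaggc
Fat4, chr3:38886690-38886939, plus strand: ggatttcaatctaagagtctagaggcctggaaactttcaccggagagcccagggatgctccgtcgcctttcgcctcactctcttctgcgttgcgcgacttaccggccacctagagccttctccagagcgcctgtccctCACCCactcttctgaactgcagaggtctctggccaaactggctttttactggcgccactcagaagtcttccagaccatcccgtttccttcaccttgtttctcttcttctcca
Pcdh7, chr5:57717831-57718080, plus strand: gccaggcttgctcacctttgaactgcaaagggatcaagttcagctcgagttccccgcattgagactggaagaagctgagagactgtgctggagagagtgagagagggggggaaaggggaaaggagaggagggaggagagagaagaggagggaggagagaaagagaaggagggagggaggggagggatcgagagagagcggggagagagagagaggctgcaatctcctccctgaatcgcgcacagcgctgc

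CACCC, searched on both strands, occurred 3 times before Pcdh18, once before Fat4 and not at all in the Cdh6 and Pcdh7 windows, whereas 52.0% of the 32851 promoter windows of this length held at least 1 match. CAGGTG, the E-box bound by Snail and ZEB repressors, was searched in the same way and was in none of the 4 windows, against 17.2% of all windows. CTTTGA, also searched on both strands, had 1 match before Pcdh7 and none in the other windows shown, against 13.8% of all windows. GC content was 51.2% for Cdh6, 68.0% for Pcdh18, 54.8% for Fat4 and 58.4% for Pcdh7, beside a median of 52.4%. Pcdh18 had 23 CpG dinucleotides, where the median window had 6. A match is a string of letters and not a binding site, and no match says only that these letters are not in the window.

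Cushion and ventricle were compared within each genotype, with edgeR's quasi-likelihood test and Benjamini-Hochberg adjustment over 14940 genes at a threshold of 0.05. In wild type, 23.1% of all tested genes were called, 12.46% higher and 10.65% lower in cushion. Of the 87 tested members, 23 were called, 22 of them higher and 1 lower, and among the 31 outside the clusters 9 were called higher and 1 lower. The median log2 fold change of those 31 was 0.53, and that of all genes was 0.01. In mutants, 9.42% of all genes were called, 6.158% higher and 3.26% lower. There, 26 of the 87 members were called, 23 higher and 3 lower, with 5 higher and 3 lower outside the clusters, and the median of the 31 was 0.51. These counts rest on 2 libraries a group and depended on single libraries. For wild type the count was 3 without ventricle replicate 2, 7 without cushion replicate 1, 10 without ventricle replicate 1 and 15 without cushion replicate 2. For mutants it was 1 without cushion replicate 1, 2 without ventricle replicate 2 and 8 without ventricle replicate 1, and it was 23 without cushion replicate 2, the library that stands apart.

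Libraries with the same replicate number deviated together, so a fit with the replicate number as a block was made beside the main fit. With that block, 62 members were called in wild type, 58 higher and 4 lower (against 41.4% of all genes, 21.22% higher and 20.14% lower), and 47 in mutants, 41 higher and 6 lower (against 23.9% of all genes, 13.45% higher and 10.46% lower). With the block and a correction for GC content and length, 60 were called in wild type, 51 higher and 9 lower (against 41.2% of all genes, 16.31% higher and 24.91% lower), and 47 in mutants (31.6% of all genes).

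The 2 tissue comparisons share no library. In the main fit 10 members were called in both, 43.5% of the wild type calls and 38.5% of the mutant calls, where over all genes 1112 were called in both, 32.2% and 79.0% of the calls. The 10 were Cdh6, Cdh19, Pcdh9, Pcdh18, Pcdhac2, Pcdhb5, Pcdhb14, Pcdhb17 and Pcdhb21 higher in cushion, and Pcdh7 lower. All 87 tested members had the same sign in both genotypes, as did 67.4% of all genes, although the alpha and gamma rows share reads within their cluster and are not separate observations.

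**Figure D2:**
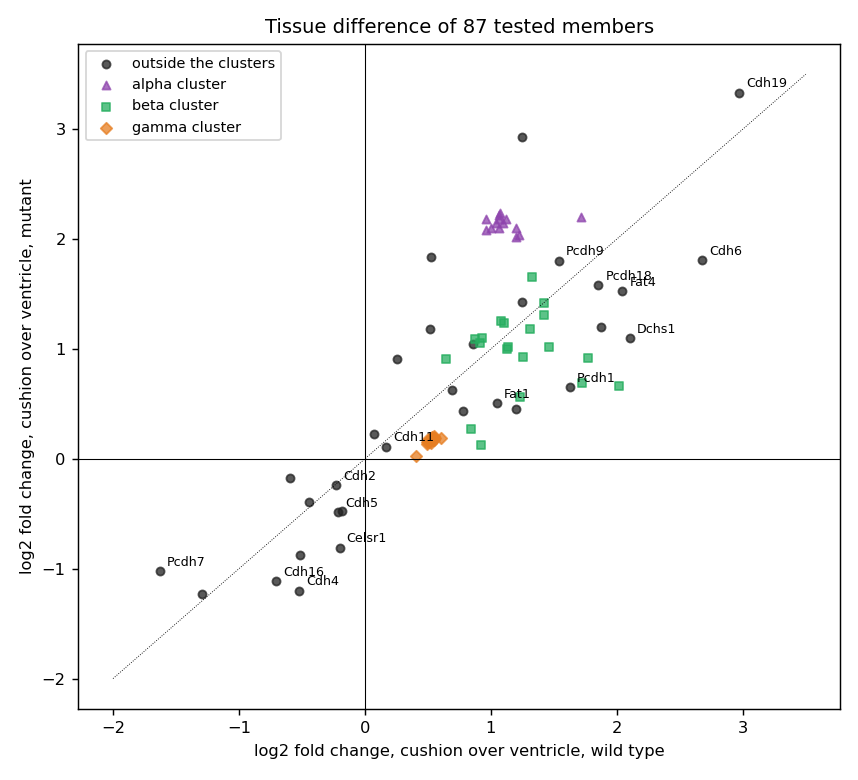
Log2 fold change of cushion over ventricle in wild type (x axis) against mutants (y axis) for the 87 tested members, 1 point per gene, with the dotted line marking equal values. Every point has the same sign on both axes, Cdh19 is at 2.97 and 3.33, Cdh6 is at 2.68 and 1.81, and Pcdh7 is at -1.63 and -1.02.

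Among type II classical cadherins, Cdh6, known from the kidney and the neural crest, was at 22.2 and 14.7 CPM in wild type cushion and at 3.74 and 2.01 CPM in wild type ventricle. Mutant cushion had 9.91 and 6.77 CPM and mutant ventricle 2.74 and 2.01 CPM. The cushion libraries lay above the ventricle libraries in both genotypes without overlap. The log2 fold change of cushion over ventricle was 2.68 (SE 0.36, edgeR adjusted p = 0.0025) in wild type and 1.81 (SE 0.36, adjusted p = 0.019) in mutants. The mutant call was lost without mutant cushion replicate 1 (adjusted p = 0.134), mutant ventricle replicate 1 (0.0585) or mutant ventricle replicate 2 (0.12).

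Cdh19, a cadherin of Schwann cell precursors and other crest-derived cells, was at 7.89 and 5.94 CPM in wild type cushion, 7.01 and 4.602 CPM in mutant cushion, 1.18 and 0.581 CPM in wild type ventricle and 0.858 and 0.268 CPM in mutant ventricle. It had the largest log2 fold change of the tested members in both genotypes, 2.97 (SE 0.49, edgeR adjusted p = 0.0053) in wild type and 3.33 (SE 0.51, adjusted p = 0.0072) in mutants. The wild type call was lost without wild type ventricle replicate 2 (adjusted p = 0.0672). Most neural crest and neuronal markers moved with the tissue too. Of the 6 tested, 5 had values above 0 and 1 below in each genotype, the lowest at -0.5 in wild type and -0.11 in mutants. The 7 reported here summed to 61.87 to 117.6 CPM in cushions and 24.16 to 29.83 CPM in ventricles. Sox10, Erbb3, Tubb3 and Stmn2 were called higher in wild type cushion, whereas Foxd3 was at 0 in all libraries. The part of these cells in the Cdh19 values was not tested.

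Cdh11, the mesenchymal OB-cadherin, was at 491.5 and 421.6 CPM in wild type cushion and 403.8 and 409.5 CPM in wild type ventricle. In mutants it was at 497.5 and 377.7 CPM in cushion and 420.2 and 391.1 CPM in ventricle. Its log2 fold change was 0.17 (SE 0.17, edgeR adjusted p = 0.493) in wild type and 0.11 (SE 0.17, adjusted p = 0.742) in mutants, and the mutant libraries overlapped. Cdh5, the VE-cadherin of endothelial junctions, was at 144.8 and 140.4 CPM in wild type cushion, 143.7 and 157.2 CPM in mutant cushion, 196.9 and 133.6 CPM in wild type ventricle and 238.6 and 183.2 CPM in mutant ventricle. Its differences of -0.21 in wild type (SE 0.20, edgeR adjusted p = 0.47) and -0.49 in mutants (SE 0.20, adjusted p = 0.172) did not pass the test. With the replicate block the mutant difference did (-0.47, adjusted p = 0.035). The remaining type II cadherins were low. Cdh24 was called higher in wild type cushion (4.84 and 6.02 CPM against 2.35 and 2.38 CPM, log2 fold change 1.20, SE 0.28, edgeR adjusted p = 0.017). Without wild type cushion replicate 2, wild type ventricle replicate 1 or wild type ventricle replicate 2 its adjusted p was 0.102, 0.0704 or 0.109, and it was 0.0755 with the GC and length correction. Cdh8, Cdh10, Cdh18 and Cdh20 were not called in either genotype. With the replicate block, 6 of the 9 tested type II cadherins were called in mutants (2 without it), among them Cdh8, Cdh10 and Cdh18 as higher in cushion, at adjusted p of 0.00428, 0.036 and 0.00997.

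All 3 tested type I classical cadherins had values below 0 in both genotypes, and 1 of them was called in the main fit, in mutants. With the block and the GC and length correction together, all 3 were called lower in cushion in both genotypes. That fit called 41.2% of all genes in wild type and 31.6% in mutants, in either direction. Cdh2, the N-cadherin of the intercalated disc, was at 510.9 and 428.9 CPM in wild type cushion and 615.8 and 485.6 CPM in wild type ventricle, with 487.6 and 433.2 CPM in mutant cushion and 588.6 and 498.7 CPM in mutant ventricle. The log2 fold change was -0.23 (SE 0.18, edgeR adjusted p = 0.371) in wild type and -0.24 (SE 0.18, adjusted p = 0.452) in mutants, so the highly expressed N-cadherin was not called in either. With the block and the GC and length correction together it was called lower in cushion in both, at -0.38 in wild type (adjusted p = 0.00315) and -0.37 in mutants (adjusted p = 0.00474). Cdh3, P-cadherin, was at 69.5 and 75.5 CPM in wild type cushion and 108.3 and 89.2 CPM in wild type ventricle. Its log2 fold change of -0.45 (SE 0.19, edgeR adjusted p = 0.114) passed only with the block (-0.43, adjusted p = 0.0288) or the GC and length correction (-0.68, adjusted p = 0.0168). Cdh4, R-cadherin, was at 1.03 and 1.26 CPM in mutant cushion and 2.70 and 2.59 CPM in mutant ventricle, and was called lower there (-1.20, SE 0.29, edgeR adjusted p = 0.036). That call was lost when any 1 of the 8 libraries was left out, with adjusted p from 0.0523 to 0.229.

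Of the other cadherins, Cdh13, the T-cadherin that is tied to the membrane by a lipid anchor, was at 56.9 and 48.2 CPM in wild type cushion and 33.3 and 28.04 CPM in wild type ventricle. It was called higher in wild type cushion (0.78, SE 0.18, edgeR adjusted p = 0.017). The mutant difference was 0.44 (SE 0.18, adjusted p = 0.164). The wild type call was lost without wild type cushion replicate 1 (adjusted p = 0.0974) or wild type ventricle replicate 2 (0.128). Cdh16, a cadherin of the kidney tubule, was at 3.24 and 4.30 CPM in mutant cushion and 7.27 and 9.06 CPM in mutant ventricle and was called lower in mutant cushion (-1.11, SE 0.26, edgeR adjusted p = 0.034). Its call was lost without any single mutant or wild type ventricle library or either mutant cushion library, with adjusted p from 0.051 to 0.235. In wild type its difference was -0.71 (SE 0.26, adjusted p = 0.085), which passed with the block (-0.73, adjusted p = 0.017).

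Non-clustered protocadherins held 6 of the 10 wild type calls and 4 of the 8 mutant calls outside the clusters. Of the 11 tested, in wild type 5 were called higher in cushion and 1 lower, and in mutants 3 higher and 1 lower. With the block 7 were higher and 1 lower in wild type, and 8 higher and 1 lower in mutants. Pcdh18, of the delta-2 subgroup, was at 231.3 and 150.6 CPM in wild type cushion, 161.2 and 121.3 CPM in mutant cushion, 57.6 and 48.0 CPM in wild type ventricle and 53.4 and 41.2 CPM in mutant ventricle. The lowest cushion library was above the highest ventricle library. In log2 terms cushion was above ventricle by 1.85 (SE 0.25, edgeR adjusted p = 0.0026) in wild type and 1.58 (SE 0.25, adjusted p = 0.0087) in mutants. The mutant call was lost without mutant cushion replicate 1 (adjusted p = 0.0613) or mutant ventricle replicate 2 (0.0589).

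Pcdh7, a delta-1 protocadherin, ran the other way. It was at 93.1 and 92.6 CPM in wild type cushion and 314.7 and 259.8 CPM in wild type ventricle, and at 126.9 and 137.5 CPM in mutant cushion and 300.7 and 236.8 CPM in mutant ventricle. All 4 ventricle libraries were above all 4 cushion libraries. In log2 terms the difference was -1.63 (SE 0.16, edgeR adjusted p = 0.00078) in wild type and -1.02 (SE 0.16, adjusted p = 0.0077) in mutants. Without mutant cushion replicate 1 the mutant adjusted p was 0.0736. Cardiomyocyte markers were also lower in cushion, with 8 of 10 below 0 and 2 called in wild type (Myl2 and Tnnt2), and their part in the Pcdh7 difference was not tested.

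Pcdh9, also of the delta-1 subgroup, was at 32.3 and 20.9 CPM in wild type cushion, 37.1 and 25.4 CPM in mutant cushion, 10.3 and 8.03 CPM in wild type ventricle and 10.5 and 7.37 CPM in mutant ventricle. Cushion and ventricle did not overlap, and the log2 fold change was 1.54 (SE 0.30, edgeR adjusted p = 0.0099) in wild type and 1.80 (SE 0.29, adjusted p = 0.01) in mutants. The wild type call was lost without wild type ventricle replicate 2 (adjusted p = 0.0947), and the mutant call without mutant cushion replicate 1 (0.0668) or mutant ventricle replicate 2 (0.0662). Pcdh1, Pcdh11x and Pcdh17 were called higher in wild type cushion while the mutant p missed the threshold, and the test of the difference between genotypes called none of them. With the block all 3 were called higher in both genotypes, in mutants at adjusted p of 0.039, 2.5e-05 and 0.014. Pcdh1 had a log2 fold change of 1.63 (SE 0.38, adjusted p = 0.019) in wild type, which was 1.05 (adjusted p = 0.0589) with the GC and length correction. Pcdh11x was at 1.24 (SE 0.37, adjusted p = 0.048) in wild type and 1.43 (SE 0.37, adjusted p = 0.053) in mutants. Pcdh17 was at 0.69 (SE 0.19, adjusted p = 0.033) in wild type and 0.63 (SE 0.19, adjusted p = 0.073) in mutants. Pcdh20 was called in mutants (1.04, SE 0.27, adjusted p = 0.047) and, with the block, in both genotypes, where wild type was at 0.85 (adjusted p = 0.017). Each of these 4 calls was lost when some single libraries were left out: Pcdh1 without wild type cushion replicate 1 (adjusted p = 0.0896) or ventricle replicate 2 (0.125), Pcdh17 without any one of the 4 wild type libraries (0.077 to 0.176), Pcdh11x without any of those or either mutant ventricle library (0.0514 to 0.229), and Pcdh20 without any one of the 8 (0.0592 to 0.215). Pcdh17 also lost its call with the GC and length correction (0.64, adjusted p = 0.0682). Pcdh19, a delta-2 protocadherin, was at 1.62 to 3.52 CPM in the 4 cushion libraries and 0.528 to 1.72 CPM in the 4 ventricle libraries. Its log2 fold change was 1.88 (SE 0.59, edgeR adjusted p = 0.0515) in wild type and 1.20 (SE 0.54, adjusted p = 0.215) in mutants, and both passed with the block (adjusted p = 0.0018 and 0.013). Pcdh12, the endothelial VE-cadherin-2, was at 24.2 and 26.4 CPM in wild type cushion and 32.7 and 24.7 CPM in wild type ventricle and was not called (-0.18, SE 0.20, edgeR adjusted p = 0.547). Pcdh15, like Pcdh7, was lower in cushion without overlap in both genotypes, but below 1 CPM. It was at 0.329 and 0.356 CPM in wild type cushion and 0.802 and 0.898 CPM in wild type ventricle. In mutants it was at 0.392 and 0.174 CPM in cushion and 0.654 and 0.670 CPM in ventricle. Neither the main fit nor the block called it.

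Fat and Dachsous genes showed large differences on a large spread between replicates. Fat4 and Dchs1 encode giant cadherins that bind each other across cell boundaries, and DCHS1 is a known gene of mitral valve prolapse. Fat4 was at 1046 and 368.2 CPM in wild type cushion, 662.6 and 324.1 CPM in mutant cushion, 261.8 and 81.7 CPM in wild type ventricle and 264.9 and 77.9 CPM in mutant ventricle. Every cushion library was above every ventricle library, and replicate 1 was well above replicate 2 in each group. The log2 fold change was 2.04 (SE 0.90, edgeR adjusted p = 0.155) in wild type and 1.52 (SE 0.89, adjusted p = 0.36) in mutants. With the replicate block it was 2.08 (SE 0.16, adjusted p = 7.8e-07) and 1.70 (SE 0.16, adjusted p = 7e-06).

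Dchs1 was at 324.7 and 129.4 CPM in wild type cushion, 187.8 and 77.3 CPM in mutant cushion, 79.9 and 25.9 CPM in wild type ventricle and 88.1 and 35.7 CPM in mutant ventricle. The wild type groups did not overlap and the mutant groups did. Its log2 fold change was 2.10 (SE 0.83, edgeR adjusted p = 0.12) in wild type and 1.10 (SE 0.80, adjusted p = 0.47) in mutants, and with the block 2.16 (adjusted p = 1.9e-08) and 1.10 (adjusted p = 1.1e-05). Fat1, a regulator of actin dynamics and cell migration, was at 1481 and 547.0 CPM in wild type cushion and 732.9 and 248.0 CPM in wild type ventricle, with 884.7 and 448.3 CPM in mutant cushion and 679.9 and 257.4 CPM in mutant ventricle. It was called only with the block, at 1.07 (adjusted p = 6e-05) in wild type and 0.60 (adjusted p = 0.007) in mutants. Fat3 was at 66.1 and 47.5 CPM in wild type cushion and 108.2 and 63.6 CPM in wild type ventricle, and its difference of -0.60 (SE 0.48, edgeR adjusted p = 0.409) was called with the block alone (-0.56, adjusted p = 0.0034) or the GC and length correction alone (-0.66, adjusted p = 0.038). In the main edgeR fit, with neither the block nor the correction, none of the 4 tested genes of this class was called in either genotype. The count at an unadjusted p under 0.05 was 1 in wild type (Dchs1) and 0 in mutants, and with the block 4 and 3 were called.

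Replicate 1 exceeded replicate 2 in all 4 genes of this class. Over the 4 groups, the mean log2 ratio of replicate 1 to replicate 2 was 1.5 for Fat4 (from 1.03 to 1.77), 1.38 for Dchs1 (1.28 to 1.62), 1.35 for Fat1 (0.98 to 1.56) and 0.80 for Fat3 (0.48 to 1.0). It was 0.25 for Cdh2 and 0.18 for Cdh11. The ratios did not follow length throughout. Fat3, with the longest transcript at 18760 bases, had the smallest ratio of the 4, and Celsr1 (10879 bases) and Pcdh17 (11451 bases), of about the length of Dchs1 (10754 bases), were at 0.19 and 0.11. Across the 20 members outside the clusters with a mean of at least 5 CPM, the ratio had a Spearman correlation of 0.632 with transcript length, and across 11015 genes one of 0.541. These are descriptions across genes of the same libraries, and genes are not replicates. Genes with transcripts of 10 kb or more had a median ratio of 0.50 (317 genes), so the Fat4, Dchs1, Fat1 and Fat3 values lay above it. What the replicate number marks is not given, and its part in these differences was not tested beyond the block.

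**Figure D3:**
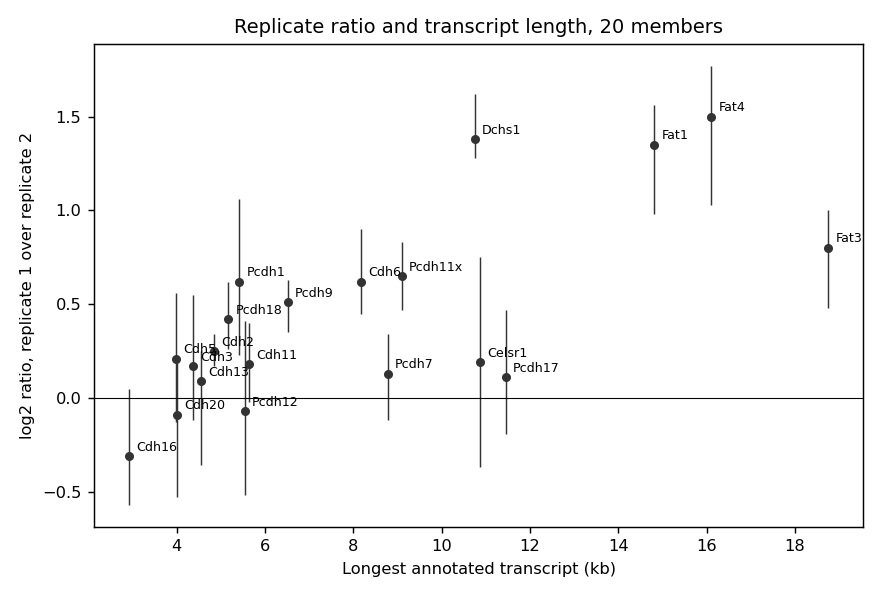
Log2 ratio of replicate 1 to replicate 2 (y axis) against the length of the longest annotated transcript in kb (x axis) for the 20 members outside the clusters with a mean of at least 5 CPM. Points are means over the 4 groups and bars run from the lowest to the highest group; Fat4, Dchs1, Fat1 and Fat3 lie between 0.80 and 1.5.

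The seven-pass cadherins Celsr1 and Celsr2, core components of planar polarity, had lower values in cushion in both genotypes. Celsr1 was at 22.7 and 29.3 CPM in wild type cushion, 18.3 and 16.9 CPM in mutant cushion, 37.5 and 22.3 CPM in wild type ventricle and 33.9 and 27.9 CPM in mutant ventricle. The mutant groups did not overlap. The mutant log2 fold change was -0.81 (SE 0.25, edgeR adjusted p = 0.081), and it passed with the block (adjusted p = 0.0192) and with the GC and length correction (-0.89, adjusted p = 0.0147). In wild type the value was -0.20 (SE 0.25, edgeR adjusted p = 0.584), -0.79 with the GC and length correction (adjusted p = 0.0148), and 0.21 without wild type ventricle replicate 1. Celsr2 was at 4.93 and 4.04 CPM in wild type cushion and 9.57 and 3.22 CPM in wild type ventricle, and was not called in either genotype without the block. With the block it was called lower in mutant cushion (-0.85, adjusted p = 0.0456), at 3.58 and 2.04 CPM against 6.74 and 3.48 CPM, and with the block and the GC and length correction also in wild type (-0.98, adjusted p = 0.0038). Without wild type ventricle replicate 1 its wild type value was 0.47.

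Genes that work with the cadherins were counted from lists written for this comparison. Beside these counts, edgeR called 23.1% of all genes in wild type and 9.42% in mutants. With the block the shares were 41.4% and 23.9%. Of 12 tested catenins and plaque partners, 1 was called in each genotype (3 in wild type and 4 in mutants with the block): Ctnna2, the alpha-N-catenin of neurons, at 34.5 and 24.5 CPM in wild type cushion against 2.09 and 2.48 CPM in wild type ventricle (3.69, SE 0.37, edgeR adjusted p = 0.00093) and at 3.02 (SE 0.36, adjusted p = 0.0032) in mutants. Ctnnb1, beta-catenin, was at 1381 to 1634 CPM in all 8 libraries, with a difference of 0.09 in both genotypes (edgeR adjusted p = 0.693 and 0.769).

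Of 6 tested desmosomal cadherins and plaque genes, 3 were called lower and 1 higher in wild type cushion. Dsc2, the heart's desmocollin, was at 46.5 and 48.2 CPM in wild type cushion and 130.9 and 115.8 CPM in wild type ventricle (-1.38, SE 0.17, edgeR adjusted p = 0.0015). Dsg2, its desmoglein partner, was at -1.19 (SE 0.30, adjusted p = 0.03) and Pkp2, the plakophilin of the cardiac desmosome, at -1.11 (SE 0.19, adjusted p = 0.0058). Dsc2 and Pkp2 were also called lower in mutant cushion (-0.96 and -0.75, adjusted p = 0.011 and 0.042). Pkp1 was called higher in both but did not exceed 1.43 CPM in any library.

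Of 7 Fat and Dachsous partners, 2 were called higher in wild type cushion, Lix1 and Lix1l, relatives of the Drosophila protein Lowfat, which binds Fat and Dachsous (0.82 and 0.54, edgeR adjusted p = 0.043 and 0.027). With the block 5 were called higher and 1 lower. None was called in mutants by edgeR, where 2 had an unadjusted p under 0.05 and 1 was called with the block. Fjx1, the kinase homologous to Drosophila four-jointed, was at 0.64 (SE 0.30, adjusted p = 0.149) and 0.67 (SE 0.29, adjusted p = 0.198). Of 11 core planar polarity genes, Ptk7, Vangl1 and Vangl2 were called higher in wild type cushion (1.20, 0.77 and 0.90, adjusted p = 0.0063, 0.005 and 0.024), and 6 with the block. None was called in mutants by edgeR, where 3 had an unadjusted p under 0.05 and 3 were called with the block. Of 10 transcription factors of epithelial-to-mesenchymal transition, 7 were called higher in wild type cushion and 4 in mutant cushion. Snai2, a repressor of E-cadherin, was at 1.73 (SE 0.31, edgeR adjusted p = 0.0073) in wild type and 2.14 (SE 0.32, adjusted p = 0.0061) in mutants, whereas Snai1 was called in wild type only (3.64, SE 0.81, adjusted p = 0.02) at 6.34 CPM or less. Of 9 other cadherin-repeat genes 5 were tested, and the calsyntenins Clstn1 and Clstn2 were called higher in wild type cushion (1.16 and 3.66, adjusted p = 0.0048 and 0.02), and 4 of the 5 with the block. In mutants none of the 5 was called by edgeR, 2 had an unadjusted p under 0.05 and 1, Clstn2, was called with the block. Of 12 partners of VE-cadherin junctions, Ptprj was called higher and Rap1a lower in wild type cushion (6 were called with the block, 5 higher and 1 lower), and none was called in mutants by edgeR, where 4 had an unadjusted p under 0.05 and 4 were called with the block.

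The mutant and wild type cushion were compared next. Mutants carry a change at Nfatc1 as well as at Klf2, and the parts of the 2 genes cannot be told apart. Nfatc1 was at 35.9 and 22.1 CPM in wild type and 24.9 and 15.15 CPM in mutant cushion. By edgeR no member was called, nor was any other gene (0% of 14940), although 5 of 87 members and 1699 of all genes had an unadjusted p under 0.05. By limma-voom and DESeq2 the count of members was also 0. With the replicate block, 0.863% of all genes were called (0.2945% higher and 0.5689% lower), and 2 of the 87 members, Cdh6 and Dchs1, both lower in mutants. With the block and the GC and length correction there were 3: Cdh6 and Pcdh18 lower and Pcdh7 higher (against 0.495% of all genes, 0.1807% higher and 0.3146% lower).

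Cdh6 was at 22.2 and 14.7 CPM in wild type and 9.91 and 6.77 CPM in mutant cushion, with no overlap. The log2 fold change was -1.14 (SE 0.33, edgeR adjusted p = 0.435, unadjusted p = 0.0077). With the block it was -1.14 (SE 0.18, adjusted p = 0.009) and with the block and the GC and length correction -1.26 (adjusted p = 0.0059). Within each replicate number the mutant library was below the wild type library. The block call was lost without wild type cushion replicate 1 (-1.17, adjusted p = 0.0845) or wild type cushion replicate 2 (-1.13, adjusted p = 0.13), and it held without mutant cushion replicate 2 (-1.18, adjusted p = 0.00905). In the ventricle Cdh6 was at 3.74 and 2.01 CPM in wild type and 2.74 and 2.01 CPM in mutants. The difference between the tissues in the genotype effect was -0.87 (SE 0.50, edgeR adjusted p = 0.482; with the block -0.89, adjusted p = 0.105), so a cushion-specific change of Cdh6 was not shown.

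Dchs1 was at 324.7 and 129.4 CPM in wild type and 187.8 and 77.3 CPM in mutant cushion, groups that overlapped. Its log2 fold change was -0.78 (SE 0.80, edgeR adjusted p = 0.698), and -0.77 (SE 0.11, adjusted p = 0.0069) with the block. The block call was lost with the GC and length correction (-0.31, adjusted p = 0.169) and without wild type cushion replicate 1 (-0.82, adjusted p = 0.0518) or replicate 2 (-0.73, adjusted p = 0.112). In the ventricle the values were 79.9 and 25.9 CPM in wild type and 88.1 and 35.7 CPM in mutants, and the difference between tissues was not called with the block either (-1.05, adjusted p = 0.0852). Pcdh18, at 231.3 and 150.6 CPM in wild type and 161.2 and 121.3 CPM in mutant cushion, passed only with both adjustments (-0.50, adjusted p = 0.043).

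Pcdh7 was at 93.1 and 92.6 CPM in wild type cushion and 126.9 and 137.5 CPM in mutant cushion, again without overlap. The log2 fold change was 0.51 (SE 0.16, edgeR adjusted p = 0.435), 0.51 with the block (adjusted p = 0.0665) and 0.50 with the block and the GC and length correction (adjusted p = 0.0224). Pcdh7 was thus nearer to its ventricle level in mutant cushion than in wild type cushion, by a difference that passed in 1 of these 3 fits. In the same comparison all 8 cushion mesenchyme markers had log2 fold changes below 0, with a median of -0.33. Their sums overlapped, at 16080 and 7766 CPM in wild type and 11900 and 7571 CPM in mutant cushion. Cardiomyocyte markers were below 0 for 9 of 10, with sums of 44860 and 27100 CPM in wild type and 32550 and 28770 CPM in mutants. Mutant cushion replicate 2, which lay between the tissues in the principal component analysis, had the highest Pcdh7 of the cushions (137.5 CPM). Cardiomyocyte markers were mixed in that library. Nppa was at 754.0 CPM and Myl2 at 3965 CPM, against 142.2 to 334.9 and 2074 to 3374 CPM in the other cushions. Myh7, at 3725 CPM, was at its lowest cushion level. Epicardial markers were above 0 for 7 of 8, with a median of 0.55, sums of 201.3 and 253.5 CPM in wild type and 354.4 and 283.5 CPM in mutants, and 1 call with the block (Tbx18, 0.53, adjusted p = 0.049). The block also called the cushion mesenchyme marker Col2a1 (-0.76) and the neuronal marker Tubb3 (-1.12) lower in mutant cushion. With the GC and length correction as well, both of these calls were lost, while 1 epicardial marker was called. All 5 leukocyte and all 4 erythroid markers were above 0, with medians of 0.59 and 0.58. No marker of these lists was called by edgeR without the block, and at an unadjusted p under 0.05 there were 4 epicardial, 2 neural crest and neuronal and 1 leukocyte marker, and no erythroid, endothelial, cushion mesenchyme or cardiomyocyte marker. The part of these cell types in the Cdh6, Dchs1 and Pcdh7 values was not tested.

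Other members with low p in this comparison were Cdh24, at 4.84 and 6.02 CPM in wild type and 3.73 and 2.56 CPM in mutant cushion (-0.79, SE 0.27, edgeR adjusted p = 0.435), and Celsr1, at 22.7 and 29.3 CPM against 18.3 and 16.9 CPM (-0.56, SE 0.25, adjusted p = 0.439). Pcdh10 was at 3.92 CPM in mutant cushion replicate 1 and at 0.868 CPM in replicate 2, beside 0.704 and 0.752 CPM in wild type cushion, so its difference of 1.70 (SE 0.64, edgeR adjusted p = 0.435) rested on 1 library. Cdh4 was at 1.78 and 1.90 CPM in wild type and 1.03 and 1.26 CPM in mutant cushion (-0.68, SE 0.29, adjusted p = 0.438). Cdh10 was at 2.96 and 4.95 CPM in wild type and 6.47 and 5.56 CPM in mutant cushion. Cdh18 was at 0.376 and 0.396 CPM in wild type and 1.23 and 0.478 CPM in mutant cushion. None of these members was called with the block.

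**Figure D4:**
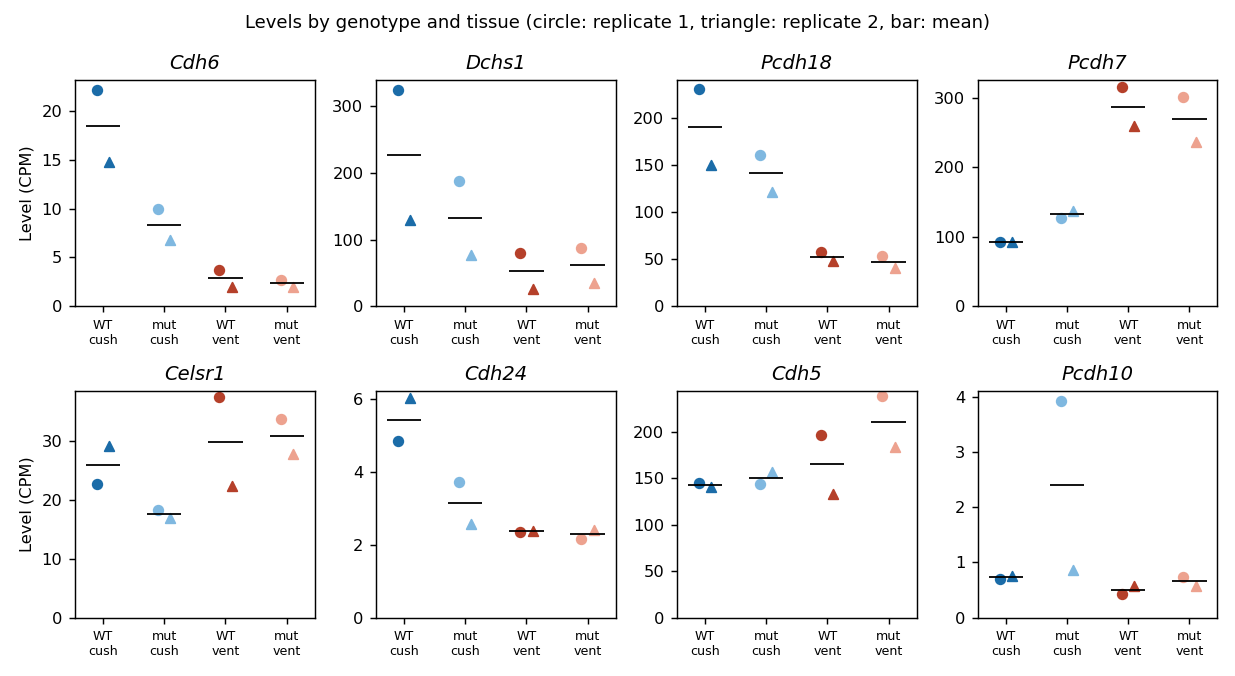
Level in CPM of 8 members in the 4 groups, each panel with its own linear axis from 0, circles for replicate 1, triangles for replicate 2 and bars for the mean of the 2. The Cdh6 points of mutant cushion (9.91 and 6.77) lie below both wild type cushion points (22.2 and 14.7), the Dchs1 points overlap, and 1 mutant cushion point sets the Pcdh10 mean.

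Mutant and wild type ventricle gave no call for any member or any gene (0% of 14940) by edgeR. At an unadjusted p under 0.05 there were 2 members and 342 genes, limma-voom and DESeq2 called no member, and with the block 0.00669% of genes (1 gene, lower, 0.006693%) and none of the members were called. Cdh5 was at 196.9 and 133.6 CPM in wild type and 238.6 and 183.2 CPM in mutant ventricle (0.35, SE 0.20, edgeR adjusted p = 0.998). Pcdh12, the other endothelial cadherin, was at 32.7 and 24.7 CPM in wild type and 40.0 and 41.5 CPM in mutants (0.51, SE 0.20, adjusted p = 0.998), without overlap. With the block both missed the threshold at an adjusted p of 0.674. The summed endothelial markers moved with them, at 1288 and 1204 CPM in wild type and 1489 and 1517 CPM in mutant ventricle, with all 10 above 0 and a median of 0.38. Their part in the Cdh5 and Pcdh12 values was not tested.

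The genotype effect was not called as different between cushion and ventricle for any member or gene (0% of 14940 by edgeR, and 0 with the block, by limma-voom and by DESeq2 for the members). At an unadjusted p under 0.05 there was 1 member, Pcdh7 (0.61, SE 0.23, edgeR adjusted p = 0.415), of 1776 genes, and with the block 28 of 87 members, 22 of them gamma rows that share reads, beside 3594 of all 14940 genes.

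The clustered protocadherins stand in 3 neighbouring clusters and give neurons their individual surface identities. Each alpha or gamma gene has its own first exon spliced to constant exons shared by the cluster, whereas each beta gene is a single exon. Rows of the alpha and gamma clusters therefore count many of the same reads. Of the 58, 56 passed the filter, and Pcdhb1 and Pcdhb10 did not.

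The 22 gamma rows were the most abundant. In wild type cushion replicate 1 they ran from 2664 to 4329 reads with a median of 2898.5, and in each of the 8 libraries Pcdhgc5 was the lowest row and Pcdhgc3 the highest. Pcdhgc3, a C-type isoform, was at 203.3 and 166.9 CPM in wild type cushion, 163.1 and 138.4 CPM in mutant cushion, 160.6 and 119.6 CPM in wild type ventricle and 165.3 and 131.0 CPM in mutant ventricle. The reads by which it exceeded the lowest row were 872 to 1709 a library, 34.4% to 43.6% of its reads, and no other row exceeded the lowest by more than 554 reads. That excess was 78.2 and 57.4 CPM in wild type cushion, 57.4 and 48.7 CPM in mutant cushion, 70.0 and 46.0 CPM in wild type ventricle and 69.8 and 52.1 CPM in mutant ventricle, so the groups overlapped. Median log2 fold changes of cushion over ventricle were 0.53 in wild type, with 4 of 22 rows called (22 with the block), and 0.18 in mutants. With the block and the GC and length correction the wild type median was 0.24, with 17 rows called. No gamma row was called in mutants by edgeR, with 0 at an unadjusted p under 0.05 and 0 with the block.

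Beta genes give 22 separate rows and were low. Pcdhb19 was at 17.5 and 10.7 CPM in wild type cushion and 6.58 and 4.75 CPM in wild type ventricle, and Pcdhb17 at 15.2 and 10.3 CPM against 5.88 and 3.64 CPM. The summed level of the cluster was 110.6 and 75.4 CPM in wild type cushion, 92.4 and 71.4 CPM in mutant cushion, 45.5 and 35.0 CPM in wild type ventricle and 46.0 and 31.1 CPM in mutant ventricle. Every cushion sum was above every ventricle sum. All 20 tested beta genes had values above 0 in both genotypes, with medians of 1.18 and 1.02. In wild type 8 were called higher (15 with the block) and in mutants 4 (11 with the block). Pcdhb5, Pcdhb14, Pcdhb17 and Pcdhb21 were called in both, and in mutants Pcdhb5 had a log2 fold change of 1.66 (SE 0.36, edgeR adjusted p = 0.025).

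Alpha rows were near 1 CPM and nearly equal within a library. They held 23 to 44 reads in wild type cushion replicate 1, 49 to 76 in mutant cushion replicate 1 and 8 to 10 in wild type ventricle replicate 2. The median row was at 1.13 and 1.31 CPM in wild type cushion, 2.48 and 1.43 CPM in mutant cushion, 0.695 and 0.422 CPM in wild type ventricle and 0.450 and 0.402 CPM in mutant ventricle. Mutant cushion replicate 1 was the highest library. All 14 rows were called higher in mutant cushion than in mutant ventricle, with a median of 2.15, and 1 was called in wild type (Pcdhac2, median of the rows 1.07). With the block 7 were called in wild type and 14 in mutants, and with the GC and length correction as well 4 and 14. Since the rows share reads, the 14 calls are not separate observations, and without mutant cushion replicate 1 no more than 1 of all 87 members was called in this comparison. Between genotypes no clustered row was called in either tissue, with or without the block, and at an unadjusted p under 0.05 there were 0 of 56 in cushion and 1 in ventricle by edgeR, and 23 and 1 with the block. Of those 23 in cushion, 22 were the gamma rows, which share reads and were all lower in mutants (-0.31 to -0.24). Of all 14940 genes, 3557 had such a p in cushion with the block.

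**Figure D5:**
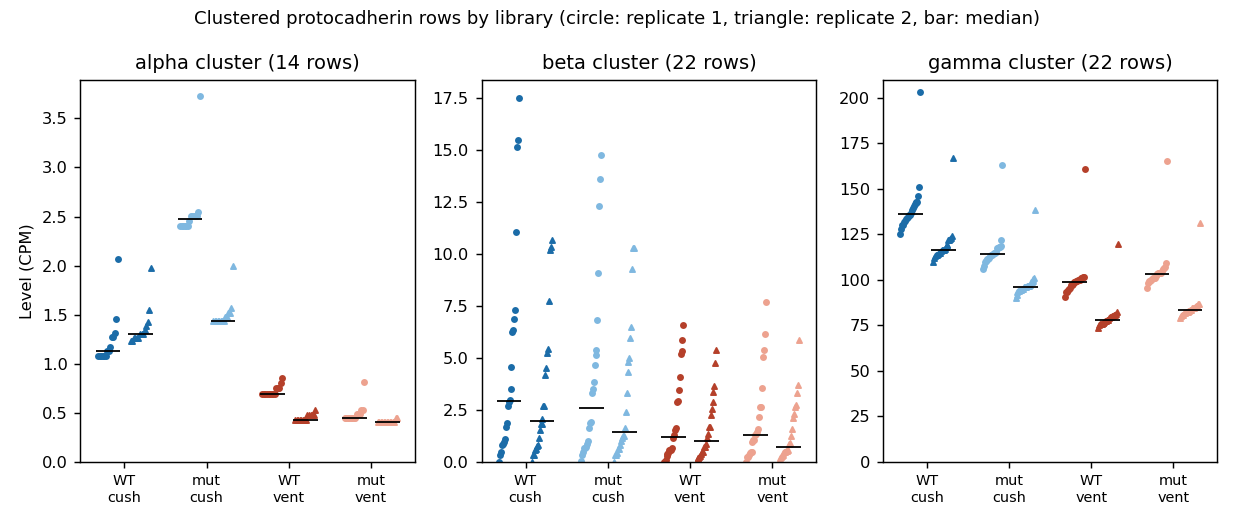
Levels in CPM of every row of the alpha (14), beta (22) and gamma (22) clusters in each library, with separate linear axes, circles for replicate 1, triangles for replicate 2 and bars for the median row. Alpha and gamma rows bunch together within a library, with Pcdhgc3 as the single point above the gamma rows, while beta rows spread from 0 to 17.5 CPM.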

How the data were processed

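Total RNA from the tissues was purified on micro columns, depleted of ribosomal RNA and made into stranded libraries, per the labels' protocols. The submitters' processing notes name Bowtie 0.12.7 and the mouse build mm9. How reads were counted, with which annotation and strand setting, is not given in the sources used here. Values were deposited by the authors as raw counts, whole numbers with no normalization. The 8 deposited tables are identical, so 1 was read and each column assigned by its title. Among 28644 rows, each of 22869 symbols was represented by its row of largest total. Members and gene lists were chosen with earlier results of these data known.

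The counts were scaled by TMM, filtered with filterByExpr (14940 genes, 87 of 101 members) and fitted over all 8 libraries as 4 groups with the robust quasi-likelihood method of edgeR 4.0.16 (R 4.3.3), with two-sided tests and Benjamini-Hochberg adjustment across all genes. The SE was derived from the fold change and the F statistic. The main fit alone was tried on simulated counts, which held no effect shared by replicate number. The block and the GC and length correction were not tried this way. Lengths and GC content are those of the longest GENCODE transcript of each symbol in the given reference, which covered 98.3% of symbols. Members to name were picked by rule: the 12 of smallest p in each direction for tissue, the 4 for genotype and interaction, and a set of well-known genes. Values of a picked member are not given for every comparison that picked it. From each partner or marker list up to 4 genes of smallest p were named, and others, such as Ctnnb1, Fjx1 and Snai2, were chosen with their values known. Of the neural crest and neuronal marker list, 7 genes are used and the others are not reported here.

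All groups carry replicate numbers 1 and 2 in the labels, whose meaning is not given. Deviations of same-numbered libraries correlated in all 6 pairs of groups (Pearson r from 0.341 to 0.522 over 14940 genes), so a fit with the number as a block was also made. The libraries of a group differed by more than sampling noise (chi-square per degree of freedom from 45.5 to 118.3). Alternatives were RLE scaling, no filter, summed rows, the compared groups only, limma-voom (limma 3.58.1), DESeq2 1.42.0, the block and each library left out. Chosen after seeing the data were a GC and length correction, with or without the block, and the block with each library left out.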

Additional observations from a re-analysis of the deposited data

How the results depend on the processing

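The count of members called was 23 for wild type cushion against ventricle, and 62 with the replicate block, 60 with the replicate block and the GC and length correction, 39 with only the compared groups and 15 with limma-voom. For mutants it was 26, and 47 with the replicate block, 47 with that block and the correction, and 7 with only the compared groups. For mutant against wild type cushion it was 0, and 2 with the replicate block and 3 with the block and correction. Leaving out 1 library gave 3 to 32 and 1 to 26 in the tissue comparisons and 0 in the other 3. With the replicate block and 1 library left out the counts were 54, 46, 62, 64, 44, 43, 60 and 61 in wild type tissue, 47, 47, 39, 41, 46, 46, 35 and 35 in mutant tissue, 0, 0, 4, 5, 2, 2, 3 and 3 for genotype in cushion, 0 in ventricle, and 0, 0, 2, 1, 1, 0, 2 and 0 for the interaction, with the cushion libraries left out first (wild type, then mutant, replicate 1 before 2) and the ventricles after them in the same order. A lone library left in a group is assumed to vary like the others. The cause of these shifts was not tested. Named results kept direction and side of the threshold in 1494 repeats, gained a call in 180, lost one in 71 and changed sign in 22. The Cdh10 interaction (0.65) became -0.05 with the GC and length correction and -0.07 with the block as well. Other sign changes came from leaving out 1 library. In wild type tissue the values ran from -0.47 to 0.09 for Cdh5 (0.04 with the block), -1.1 to 0.47 for Celsr2 (0.06 and 0.13 with the block), -0.37 to 0.03 for Pcdh12 (0.15 with the block) and -0.53 to 0.21 for Celsr1 (0.19 and 0.21 with the block). They ran from -0.72 to 0.38 for Fat3 in mutant tissue, -1.55 to 0.02 for Dchs1 by genotype in cushion, and, by genotype in ventricle, -0.24 to 1.31 for Pcdh19, -1.69 to 0.0 for Cdh19 and -0.66 to 0.18 for Cdh8 (0.05 with the block). The Pcdh10 interaction ran from -0.13 to 2.04 (-0.15 with the block). Depth limits the 12 unclustered members under the filter and the alpha rows, which held 8 to 76 reads a library.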
